A study of Mus musculus with 23 samples.

Results

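The miR-99, miR-100 and miR-125 family was followed in liver small RNA sequencing of C57bl/6J male mice. Its 9 members were chosen by name and made up 9 of the 1218 mature miRNAs in the deposited table of read counts. They comprise 5 mature miRNAs cut from the 5′ arm of a hairpin (mmu-miR-99a-5p, mmu-miR-99b-5p, mmu-miR-100-5p, mmu-miR-125a-5p and mmu-miR-125b-5p) and 4 cut from the 3′ arm (mmu-miR-99b-3p, mmu-miR-125a-3p, mmu-miR-125b-1-3p and mmu-miR-125b-2-3p), where mmu marks the mouse and is left out from here on. The study asked how the liver of mice on an obesogenic diet responds when the lineage has received the omega 3 fatty acid eicosapentaenoic acid (EPA) over 3 generations. The reference group (8 mice, group STD_Cont, lineage "Control fatty acid") came from the lineage given 1% high oleic sunflower oil and then ate a low-fat diet in which 10% of the energy was fat. The HFoleic group (8 mice, HFD_Cont) came from that same lineage and the HFepa group (7 mice, HFD_O3, lineage n-3PUFA) from the lineage given 1% fish oil, and both ate a diet with 20% sucrose in which fat gave 45% of the energy. The feeding lasted 17 weeks, each mouse gave 1 library, and no mouse of the EPA lineage in these samples was on the low-fat diet, so HFepa differs from the reference in both lineage and diet.

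MiR-99a, miR-99b and miR-100 form one family, known to restrain the kinase mTOR and the receptor for insulin-like growth factor 1. MiR-125a and miR-125b are the mammalian relatives of lin-4, the first miRNA described, and are known in developmental timing and in blood cell formation. In the genome a miR-99 or miR-100 gene, a let-7 gene and a miR-125 gene sit side by side in an arrangement that is old in animal evolution and is found at several loci in mammals. The seed, bases 2 to 8 of a mature miRNA, is the stretch that pairs with target mRNAs, so that miRNAs with one seed are read as one family.

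The 5p members fall into 2 seed groups. In each line the seed is in capitals, the sequence runs from 5′ to 3′, and all are RefSeq mature sequences on GRCm38.p6, in which every member was found. The first group is shown because its 3 members were all called higher in both high-fat groups against reference.
miR-99a-5p: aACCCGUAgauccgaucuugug
miR-100-5p: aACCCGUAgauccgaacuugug
miR-99b-5p: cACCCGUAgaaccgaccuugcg
Counted from the 5′ end, miR-100-5p differs from miR-99a-5p by the single substitution U16A, outside the seed. MiR-99b-5p differs from miR-99a-5p by A1C, U11A, U16C and U21C. The second group is shown because only one of its members, miR-125b-5p, was called, and miR-351-5p is printed with them as the only other miRNA of the table with that seed.
miR-125a-5p: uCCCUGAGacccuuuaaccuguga
miR-125b-5p: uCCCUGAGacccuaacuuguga
miR-351-5p: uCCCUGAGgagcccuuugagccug
MiR-125a-5p has 24 bases and miR-125b-5p 22, and their first 13 bases are identical. Both genes of miR-125b give the same 5p miRNA, but their 3p miRNAs differ and therefore tell the loci apart. These 3p sequences are shown with that of miR-99b, whose arms moved apart.
miR-125b-1-3p: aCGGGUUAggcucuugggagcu
miR-125b-2-3p: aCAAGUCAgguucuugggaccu
miR-99b-3p: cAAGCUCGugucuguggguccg
From miR-125b-1-3p to miR-125b-2-3p there are 5 substitutions, of which G3A, G4A and U7C lie in the seed.

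The members come from 3 clusters, all on the plus strand of GRCm38. Mir100, Mirlet7a-2 and Mir125b-1 lie at chr9:41531425-41582002, a stretch of 50578 bases, in introns of the non-coding transcript 3110039I08Rik. Within it, Mir125b-1 also overlaps an exon of the sense-intronic transcript Gm28119. Mir99a, Mirlet7c-1 and Mir125b-2 lie at chr16:77598936-77646343, over 47408 bases, in introns of the non-coding host gene Mir99ahg. Mir99b, Mirlet7e and Mir125a lie within 692 bases at chr17:17830188-17830879, inside the protein-coding gene Spaca6. Mir99b and Mirlet7e are in introns of Spaca6, whereas Mir125a overlaps one of its exons.

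Levels are given as CPM, the reads of a miRNA per 1000000 miRNA reads of its library after TMM scaling, which corrects for differences in library composition. The library totals were 5242218 to 8139344 counts in reference, 4340903 to 7220112 in HFoleic and 3725432 to 4947990 in HFepa. The numbers in the library names matter for what follows. Reference mice were libraries 1 to 8, HFoleic mice libraries 9 to 15 and 23, and HFepa mice libraries 16 to 22, and libraries 1 to 11 were deeper (median 6187441 counts) than 12 to 23 (median 4513068.5). What the numbers stand for is not given in the labels. Reference library 3 stood apart: the summed level of 4 hepatocyte miRNAs was lowest there (113597 CPM, with 267169 CPM the highest of all libraries) and the sums of 6 stellate cell and fibroblast miRNAs (42532 CPM) and of 5 biliary miRNAs (1094 CPM, next highest 333.2 CPM) were highest there. The hepatocyte miRNAs were abundant in all 23 libraries, as the liver label requires.

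The members together held 0.454% ± 0.098 of all miRNA counts in reference (SD, n = 8), 0.721% ± 0.342 in HFoleic (n = 8) and 0.877% ± 0.305 in HFepa (n = 7). In reference liver miR-125a-5p was the most abundant at 2458 ± 363 CPM, followed by miR-99b-5p at 689 ± 128 CPM and miR-125b-5p at 592 ± 73.6 CPM, whose ranges overlapped. MiR-99a-5p (314 ± 21.4 CPM) and miR-100-5p (209 ± 31.4 CPM) came next, each below its neighbour in 8 of 8 libraries. Of the 3p members, miR-125b-2-3p stood at 76.6 ± 6.94 CPM, while miR-125b-1-3p (10.2 ± 6.21 CPM), miR-99b-3p (7.84 ± 2.01 CPM) and miR-125a-3p (2.67 to 5.39 CPM) were close to the lower end of what was tested. These levels need no correction for length, since all 9 have 22 to 24 bases, but each sequence is ligated with its own efficiency, so the order between miRNAs is that of reads. In both high-fat groups the order of miR-100-5p and miR-99a-5p was turned, with miR-100-5p higher in 5 of 8 HFoleic and in 6 of 7 HFepa libraries.

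**Figure D1:**
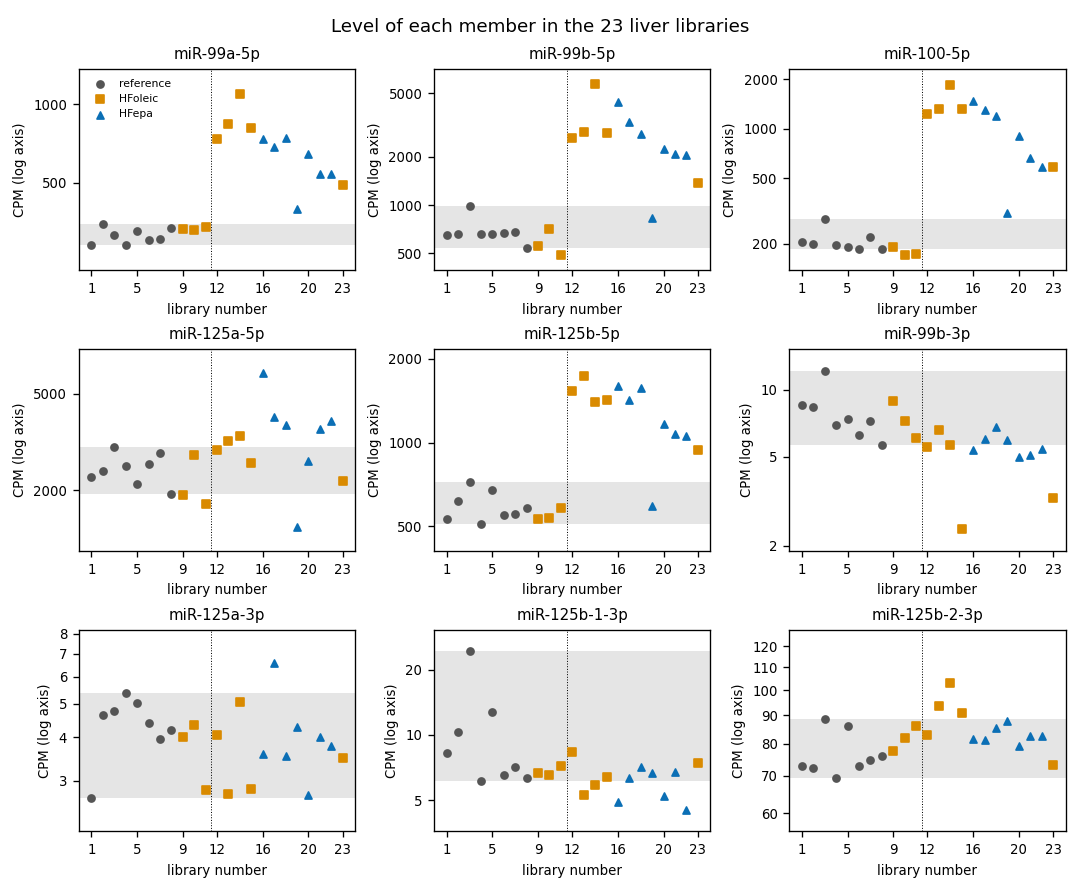
Level of each of the 9 members (CPM, log axis) against library number, 1 point per mouse, with the range of the 8 reference libraries as a grey band and a dotted line between libraries 11 and 12. MiR-99a-5p, miR-99b-5p, miR-100-5p and miR-125b-5p lie within or just below the band in HFoleic libraries 9 to 11 and above it in HFoleic libraries 12 to 15 and 23 and in at least 6 of the 7 HFepa libraries.

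The comparison of HFoleic with reference asks what the obesogenic diet did within the oleic lineage. Of the 9 members, 4 rose: miR-100-5p, miR-99b-5p, miR-99a-5p and miR-125b-5p. None fell. MiR-125a-5p, made from the same stretch of chromosome 17 as miR-99b-5p, did not pass the test. All 9 members passed the filter on low counts, and among the 386 miRNAs tested 4.92% were called higher and 7.51% lower, where a call is an adjusted p under 0.05 by edgeR's quasi-likelihood test with an absolute log2 fold change over 0.25. The median log2 fold change was 0.17 over the members and -0.002 over all miRNAs tested. In bulk liver, fewer cells of a type and less RNA per cell cannot be told apart.

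MiR-100-5p, made from chromosome 9, had 186.7 to 281.7 CPM in the reference libraries (median 198.1) and 172.5 to 1856 CPM in HFoleic (median 911.7). The HFoleic libraries formed 2 sets, with 172.5 to 190.7 CPM in libraries 9 to 11 and 586.9 to 1856 CPM in libraries 12 to 15 and 23. The log2 fold change was 2.03 (SE 0.44, adjusted p = 0.0107 by edgeR), the largest of the family. MiR-99b-5p of chromosome 17 ranged from 543.8 to 987.4 CPM in reference (median 659.8), from 488.6 to 708.4 CPM in HFoleic libraries 9 to 11 and from 1368 to 5688 CPM in the other 5. Its log2 fold change was 1.64 (SE 0.41, adjusted p = 0.0174 by edgeR). The low set thus lay within or below the reference range and the high set above it.

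MiR-99a-5p, which shares 21 of its 22 bases with miR-100-5p but is made from chromosome 16, had a tighter reference range of 288.4 to 348.1 CPM. HFoleic libraries 9 to 11 held 330.6 to 337.9 CPM, inside that range, and the other 5 held 489.7 to 1092 CPM, all above it. The log2 fold change was 0.99 (SE 0.21, adjusted p = 0.0107 by edgeR). MiR-125b-5p, the product of both the chromosome 9 and the chromosome 16 locus, had 510.2 to 721.8 CPM in reference, 532.1 to 581.2 CPM in HFoleic libraries 9 to 11 and 936.8 to 1733 CPM in the other 5. Its log2 fold change of 0.87 (SE 0.24, adjusted p = 0.0249 by edgeR) was the smallest of the 4, and the call was lost on leaving out reference library 5 or HFoleic library 13, 14 or 15 (log2 fold changes 0.75 to 0.88, adjusted p = 0.0511 to 0.0573). Again the same 5 mice carried the rise.

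MiR-125a-5p, by reads the main member in reference, did not pass the test, whereas miR-125b-5p with the same seed did; the difference between them was not tested. It had 1923 to 3023 CPM in reference and 1763 to 3349 CPM in HFoleic, with 2 of the 8 HFoleic libraries above the reference range and 2 below it, and a log2 fold change of 0.08 (SE 0.20, adjusted p = 0.838 by edgeR). The 3p members did not pass the test either. MiR-125b-1-3p had a log2 fold change of -0.61 (SE 0.24, adjusted p = 0.101), miR-99b-3p of -0.44 (SE 0.20, adjusted p = 0.146), miR-125a-3p of -0.26 (SE 0.17, adjusted p = 0.328) and miR-125b-2-3p of 0.17 (SE 0.07, adjusted p = 0.124), all by edgeR.

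Expressed relative to the reference mean, HFoleic libraries 9 to 11 stood at 1.06 for miR-99a-5p, 0.850 for miR-99b-5p, 0.857 for miR-100-5p and 0.929 for miR-125b-5p. The 5 HFoleic libraries from 12 upwards stood at 2.53, 4.46, 6.04 and 2.37 for the same miRNAs. Of the 9 members, 4 were higher in all 5 of these libraries than in all 3 of the others, against 9.59% of all miRNAs tested, and 35 of the 386 (9.07%) were lower in the same way. The cut after library 11 is in no label and was set with these data known. It falls where these members change within HFoleic, so neither this separation nor the fits that use the cut are independent of that change. Within libraries 1 to 11 alone, 0 members were called. There the log2 fold change of HFoleic against reference was -0.21 (SE 0.12) for miR-100-5p, -0.22 (SE 0.16) for miR-99b-5p, -0.10 (SE 0.10) for miR-125b-5p and 0.10 (SE 0.08) for miR-99a-5p, with adjusted p between 0.662 and 0.745 by edgeR, and 0 of all 409 miRNAs tested were called. When the model was told which mice were numbered 12 or above, by a library-number term, 0 members were called in any comparison. The rise in HFoleic was thus carried by the mice numbered 12 and above.

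In HFepa vs. reference, which differ in lineage as well as diet, the same 4 members rose and 1 fell, miR-125b-1-3p. All 7 HFepa mice exceeded all 8 reference mice in miR-99a-5p and miR-100-5p, and 6 of 7 did so in miR-99b-5p and miR-125b-5p. Among all miRNAs tested, 5.18% were called higher and 10.6% lower, while 2.07% had every HFepa library above every reference library and 2.59% every one below. The median log2 fold change was 0.55 over the members and -0.06 over all miRNAs tested. The 2 comparisons share the reference mice and are not independent of each other.

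MiR-100-5p had 308.9 to 1484 CPM in HFepa (median 907.8), and the groups did not overlap. Its log2 fold change was 2.14 (SE 0.45, adjusted p = 0.00428 by edgeR). MiR-99b-5p had 831.1 to 4404 CPM (median 2235), a log2 fold change of 1.88 (SE 0.42, adjusted p = 0.00653 by edgeR). Only HFepa library 19 lay inside the reference range, which for miR-99b-5p is stretched by reference library 3. MiR-99a-5p had 397.4 to 739.8 CPM (median 645.7), with no overlap, and a log2 fold change of 0.96 (SE 0.22, adjusted p = 0.00705 by edgeR). MiR-125b-5p had 590.2 to 1603 CPM (median 1164), and HFepa library 19 alone overlapped with reference. Its log2 fold change was 1.03 (SE 0.25, adjusted p = 0.00877 by edgeR). HFepa library 19 was the lowest of libraries 12 to 23 for each of the 5 5p members.

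MiR-125a-5p lay between 1408 CPM (library 19) and 6090 CPM (library 16) in HFepa. Of the 7 mice, 5 were above the reference range, 1 inside it and 1 below, and the log2 fold change of 0.55 (SE 0.20) missed the threshold (adjusted p = 0.0593 by edgeR). It passed without HFepa library 19 (log2 fold change 0.70, adjusted p = 0.00702), in 3 of the other fits that left out 1 library, and with DESeq2 (0.57, adjusted p = 0.0480). MiR-125b-1-3p had 4.49 to 7.08 CPM in HFepa against 6.11 to 24.5 CPM in reference, on 19 to 32 and 39 to 169 reads per library. It fell by 0.79 on the log2 scale (SE 0.25, adjusted p = 0.0340 by edgeR), but without reference library 3 the change was -0.47 (adjusted p = 0.0666), and the call was kept in 16 of 23 fits that each left out 1 library. It was also lost under quantile normalization (-0.44, adjusted p = 0.145), without a filter on low counts (-0.80, adjusted p = 0.0730) and with only the 2 groups compared (-0.76, adjusted p = 0.0964). MiR-99b-3p (log2 fold change -0.47, adjusted p = 0.139), miR-125a-3p (-0.12, adjusted p = 0.732) and miR-125b-2-3p (0.12, adjusted p = 0.327) did not pass edgeR's test.

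All HFepa libraries are numbered 16 to 22 and all reference libraries 1 to 8, so the group and the library number cannot be told apart in this comparison. Against the reference mean, HFepa stood at 1.95 for miR-99a-5p, 3.68 for miR-99b-5p, 4.42 for miR-100-5p and 2.04 for miR-125b-5p, between the low and the high set of HFoleic mice. With the library-number term, which takes its size from the HFoleic mice on either side of library 11, HFepa differed from reference in log2 by -0.29 (SE 0.23) for miR-99a-5p, -0.51 (SE 0.47) for miR-99b-5p, -0.67 (SE 0.44) for miR-100-5p and -0.32 (SE 0.28) for miR-125b-5p, none called. Across all libraries, miR-99a-5p and miR-100-5p were higher in each of the 12 libraries from 12 upwards than in each of the first 11, a pattern that 1.55% of the miRNAs tested showed, with 1.3% in the opposite direction.

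**Figure D2:**
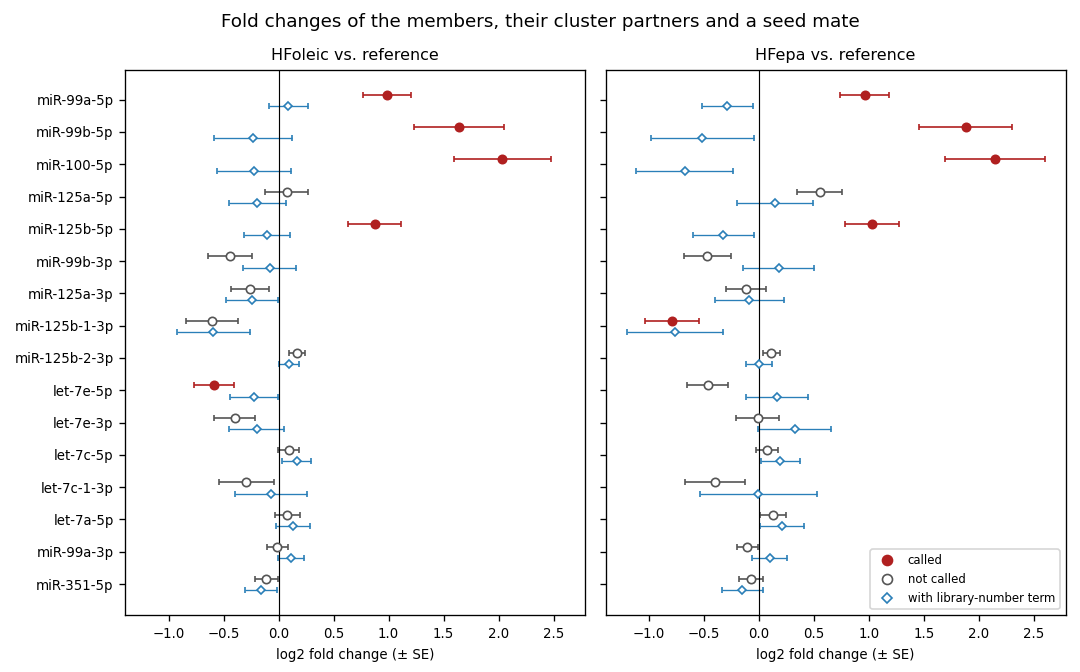
Log2 fold changes (± SE) against reference of the 9 members, 6 products of the same clusters and miR-351-5p, in HFoleic (8 mice) and HFepa (7 mice) against 8 reference mice. Red circles are called, open circles are not, and blue diamonds are from the fit with a term for library numbers; the 4 called 5p members lie between 0.87 and 2.14 without the term and between -0.67 and 0.09 with it.

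The comparison of HFepa with HFoleic asks what the EPA lineage changed under the obesogenic diet. None of the 9 members was called between these groups, and of all miRNAs tested 0.0% were called by edgeR, with 22 (5.7%) at an unadjusted p under 0.05, and 0 by DESeq2 and by limma on quantile-normalized values. HFepa lies wholly within libraries 12 to 23 and HFoleic only in part, so a missed call does not show equal levels. The difference with the smallest p in the family was in miR-125a-5p, with 3609 ± 1424 CPM in HFepa (n = 7) and 2589 ± 587 CPM in HFoleic (n = 8), a log2 fold change of 0.48 (SE 0.20, unadjusted p = 0.0272, adjusted p = 0.682 by edgeR). For the others the log2 fold change lay between -0.18 (SE 0.25) for miR-125b-1-3p and 0.24 (SE 0.41) for miR-99b-5p. Within libraries 12 to 23 alone, where both groups are present, it was -0.45 (SE 0.33) for miR-100-5p, -0.37 (SE 0.17) for miR-99a-5p and 0.34 (SE 0.25) for miR-125a-5p, and none was called.

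Ratios between members inside a library need no scaling between libraries. For 5 such ratios in the 3 comparisons, 15 exact two-sided permutation tests over mice were made on the log2 ratio and adjusted together. Of the 5 ratios, 3 passed the test in HFoleic vs. reference, 4 in HFepa vs. reference and 0 in HFepa vs. HFoleic. The largest differences were between the arms of miR-99b. There were 74.7 to 105 reads of miR-99b-5p per read of miR-99b-3p in reference, 62.1 to 96.9 in HFoleic libraries 9 to 11, 404 to 1134 in the other 5 HFoleic libraries and 137 to 804 in HFepa. HFepa did not overlap with reference, with a difference of 2.17 on the log2 scale (exact permutation test, p = 0.000155, the smallest these group sizes allow, adjusted p = 0.00117). In HFoleic the difference was 1.69 (exact permutation test, adjusted p = 0.0463), and without reference library 3 or any 1 of HFoleic libraries 12 to 15 and 23 it was 1.41 to 1.68 and no longer passed (adjusted p = 0.0543 to 0.0666). Over all libraries the 3p arm of miR-99b ranged from 2.37 to 12.2 CPM, on 10 to 84 reads, so its counting error is large in each ratio.

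The arms of miR-125a, from the neighbouring hairpin, gave 415 to 817 reads of 5p per read of 3p in reference, 463 to 1130 in HFoleic and 320 to 1650 in HFepa. The differences of 0.31 and 0.57 on the log2 scale did not pass (exact permutation test, adjusted p = 0.172 and 0.119). Between the neighbours on chromosome 17, miR-125a-5p outnumbered miR-99b-5p by 3.06 to 4.17 in reference and 3.40 to 3.93 in HFoleic libraries 9 to 11. In the other HFoleic libraries it stood at 0.589 to 1.60 and in HFepa at 1.18 to 1.87. HFepa and reference did not overlap in this ratio (difference -1.29, adjusted p = 0.00117), and HFoleic differed from reference by -1.13 (adjusted p = 0.0373, exact permutation tests).

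In HFepa miR-100-5p rose more than miR-99a-5p, from which it differs by 1 base. The ratio of miR-100-5p to miR-99a-5p was 0.560 to 0.891 in reference and 0.777 to 2.03 in HFepa, with a difference of 1.05 on the log2 scale (exact permutation test, adjusted p = 0.00155). In HFoleic it was 0.514 to 0.572 in libraries 9 to 11 and 1.20 to 1.70 in the other 5, with a difference of 0.65 that did not pass (exact permutation test, adjusted p = 0.0842) and that passed on leaving out library 9, 10 or 11. The alignment allowed mismatches, so some reads of one may have been counted as the other. The ratio of miR-125b-1-3p to miR-125b-2-3p sets a 3p product of the chromosome 9 locus against one of the chromosome 16 locus, with 19 to 169 reads of miR-125b-1-3p per library. It was 0.0841 to 0.277 in reference, 0.0574 to 0.103 in HFoleic and 0.0556 to 0.0842 in HFepa. The difference from reference was -0.61 in HFoleic and -0.75 in HFepa on the log2 scale (exact permutation tests, adjusted p = 0.0373 and 0.00583). The HFoleic difference no longer passed without reference library 3 (-0.44, adjusted p = 0.0543) or without HFoleic library 13, 14 or 15 (-0.59 to -0.55, adjusted p = 0.0639 to 0.0664). The ratio of miR-100-5p to miR-99a-5p, from the same chromosomes, went the other way. How either ratio relates to the output of a locus was not tested. Within libraries 1 to 11 none of the 5 ratios passed, with adjusted p between 0.212 and 0.927 by exact permutation tests. There the difference for miR-125b-1-3p to miR-125b-2-3p was -0.52 with 3 HFoleic mice (exact permutation test, adjusted p = 0.318). HFoleic libraries 9 to 11 held 0.0802 to 0.0868 in this ratio and libraries 12 to 15 and 23 held 0.0574 to 0.103.

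**Figure D3:**
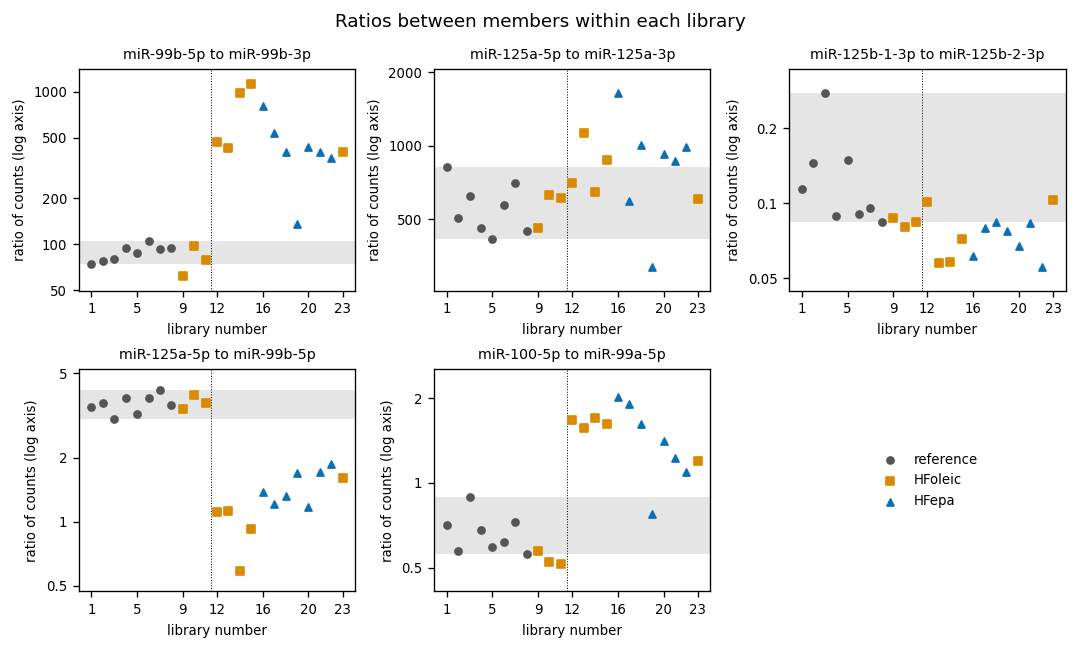
Ratio of counts between 2 members in the same library (log axis) against library number for 5 pairs, 1 point per mouse, with the reference range in grey and a dotted line between libraries 11 and 12. The ratio of miR-99b-5p to miR-99b-3p lies at 62.1 to 105 in libraries 1 to 11 and at 137 to 1134 in libraries 12 to 23, and that of miR-125a-5p to miR-99b-5p at 3.06 to 4.17 and at 0.589 to 1.87.

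Of the let-7 miRNAs and opposite arms from the same 3 clusters none was called higher. Of 8 such partners, 6 passed the filter on low counts, 0 were called higher and 1 was called lower in HFoleic, and 0 were called in HFepa, with a median log2 fold change over the 6 of -0.15 and -0.06. Let-7e-5p, whose hairpin lies 94 bases after that of miR-99b, had 275.8 to 570.3 CPM in reference and 176.9 to 453.4 CPM in HFoleic. All 5 HFoleic libraries from 12 upwards were below the reference range and none of libraries 9 to 11 was. It fell by 0.58 on the log2 scale in HFoleic (SE 0.18, adjusted p = 0.0367 by edgeR), and the log2 fold change in HFepa was -0.46 (SE 0.19, adjusted p = 0.0923). The HFoleic value was -0.22 with the library-number term (adjusted p = 0.767) and -0.21 in libraries 1 to 11 alone (adjusted p = 0.741). The call was also lost under quantile normalization, without a filter and with only the 2 groups compared (adjusted p = 0.0764, 0.0710 and 0.0539), and it was kept in 10 of 23 fits that each left out 1 library (log2 fold changes -0.69 to -0.48). Let-7a-5p (8812 ± 1489 CPM in reference) and let-7c-5p (6129 ± 889 CPM), each also made from another gene, had log2 fold changes of 0.08 to 0.13 and were not called. MiR-99a-3p, the opposite arm of miR-99a-5p, had 29.5 ± 3.75 CPM in reference, 29.3 ± 3.51 CPM in HFoleic and 27.4 ± 3.12 CPM in HFepa, and log2 fold changes of -0.01 (adjusted p = 0.959) and -0.11 (adjusted p = 0.534 by edgeR). Its 5p arm rose 1.98-fold and 1.95-fold in the same libraries. Let-7c-1-3p and let-7e-3p were not called, and miR-100-3p and let-7a-2-3p, with 76 and 27 reads over all libraries, were not tested.

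MiR-351-5p, with the seed of miR-125, had 443 ± 56.6 CPM in reference, 410 ± 53.6 CPM in HFoleic and 422 ± 65.6 CPM in HFepa, and was not called (log2 fold changes -0.11 and -0.07). MiR-6394 and miR-6367, the other miRNAs with that seed in RefSeq, are not rows of the table, and the seed of miR-99 and miR-100 has no carrier outside the family. MiR-10a-5p, a relative of miR-99a-5p with 4 edits between the sequences and another seed, had 36407 ± 5536 CPM in reference and was not called (0.12 and 0.18). MiR-10b-5p, the other miR-10 miRNA, stood at 20244 CPM in reference library 5, while the other 7 reference libraries held 280.2 to 1981 CPM, HFoleic 232.4 to 1394 CPM and HFepa 354.1 to 1292 CPM. The medians were 713.5, 487.2 and 474.0 CPM, and all 3 ranges overlapped. Its log2 fold change of -2.36 in HFepa (adjusted p = 0.04998, called) and -2.35 in HFoleic (adjusted p = 0.0510, not called, both by edgeR) rested on that library. Without it they were -0.36 (adjusted p = 0.704) and -0.36 (adjusted p = 0.667), and with DESeq2 -0.29 (adjusted p = 0.757) and -0.30 (adjusted p = 0.700).

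The 4 most abundant members were compared with all other miRNAs tested by Pearson correlation of log2 CPM over the 23 libraries, as a description. Several members had a higher median in libraries 12 to 23 than in libraries 1 to 11, a cut set with these data known. The value within each set (11 and 12 libraries) is therefore given too. The profile most like that of miR-99b-5p was that of miR-100-5p (r = 0.984; 0.793 and 0.947 within the sets), although they come from chromosomes 17 and 9. For miR-125b-5p it was also miR-100-5p (r = 0.975; 0.579 and 0.930). MiR-501-3p, from the X chromosome and no relative in sequence, followed both, with r = 0.979 to miR-100-5p and 0.961 to miR-99b-5p, but 0.323 and 0.285 within libraries 1 to 11. It rose in HFoleic (10.3 CPM in reference, 63.6 CPM in HFoleic, log2 fold change 2.62, SE 0.46, adjusted p = 0.00386) and in HFepa (71.3 CPM, log2 fold change 2.79, SE 0.47, adjusted p = 0.00122 by edgeR). With the library-number term the values were 0.22 and -0.19 (adjusted p = 0.820 and 0.971). MiR-99a-5p followed miR-100-5p with r = 0.953 in libraries 12 to 23 but -0.276 in libraries 1 to 11.

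MiR-125a-5p had other company. The profile most like it was that of miR-871-3p (r = 0.805; 0.00011 and 0.917 within the sets), then miR-99b-5p (r = 0.737; 0.875 and 0.775) and miR-126b-5p (r = 0.721; 0.0866 and 0.837). Of these, miR-99b-5p alone followed it in both sets of libraries. Between the arms of one hairpin r was 0.721 in libraries 1 to 11 and 0.140 in libraries 12 to 23 for miR-99b, and 0.437 and 0.140 for miR-125a, with few reads of the 3p arms. All points of such a correlation share the libraries and their composition.

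Members of this family are known to be abundant in connective tissue and vessel wall cells, and the marker lists of the other cells a liver sample can hold are therefore set beside the rise. Of 6 stellate cell and fibroblast miRNAs 0 were called in either comparison, and their summed level was 23454 to 42532 CPM in reference, 19872 to 28560 CPM in HFoleic and 23483 to 30365 CPM in HFepa. In HFoleic it was 23764 ± 4414 CPM in libraries 9 to 11 and 26270 ± 1970 CPM in the other 5. Most of this sum was a single miRNA, miR-143-3p, with a mean of 27425 CPM in reference against 28515 CPM for the sum. The median log2 fold change over the 6 was -0.29 in HFoleic and -0.36 in HFepa. Of the 2 endothelial miRNAs, none was called in HFoleic and miR-126a-5p was called higher in HFepa (log2 fold change 0.25, SE 0.08, adjusted p = 0.0416 by edgeR). That call was kept in 16 of 23 fits that each left out 1 library. With the library-number term its log2 fold change was 0.003. It was 0.11 under quantile normalization (adjusted p = 0.237 by limma) and 0.24 without a filter (adjusted p = 0.149 by edgeR). With library size only it was 0.20 (adjusted p = 0.0400 by edgeR), short of the log2 fold change of 0.25 that a call required. None of these was called. The endothelial sum was 13887 to 20330 CPM in reference, 18215 to 18366 CPM in HFoleic libraries 9 to 11, 19733 to 26007 CPM in the other 5 and 19646 to 23671 CPM in HFepa. Its mean was 18186 CPM in reference, 18314 CPM in HFoleic libraries 9 to 11, 21495 CPM in the other 5 and 21396 CPM in HFepa. The ranges of the other 5 and of HFepa overlapped with that of reference, whose minimum was library 3. The second endothelial miRNA, miR-126a-3p, had log2 fold changes of 0.03 in HFoleic and 0.12 in HFepa (adjusted p = 0.788 and 0.210 by edgeR). Most of the endothelial sum was miR-126a-5p, with a mean of 15766 CPM in reference. Of 6 leukocyte miRNAs, miR-150-5p was called lower in both comparisons, and the sum was 1760 to 3557 CPM in reference, 1533 to 2439 CPM in HFoleic and 1543 to 2446 CPM in HFepa. With the library-number term miR-150-5p had -0.36 in HFoleic and -0.31 in HFepa (adjusted p = 0.554 and 0.841 by edgeR). The HFoleic call was also lost in libraries 1 to 11 alone (-0.35, adjusted p = 0.675 by edgeR). With only the 2 groups compared its adjusted p was 0.0516 by edgeR. Of 5 biliary miRNAs, miR-429-3p was called lower in HFepa, but not without reference library 3 (log2 fold change -0.48, adjusted p = 0.0750; sums 150.8 to 1094 CPM in reference, 157.1 to 333.2 CPM in HFoleic and 190.7 to 263.5 CPM in HFepa). No hepatocyte or red blood cell miRNA of 4 each was called. Hepatocyte sums were 113597 to 250728 CPM in reference (mean 216828), 212715 to 267169 CPM in HFoleic (mean 248788) and 210479 to 257405 CPM in HFepa (mean 233644). The reference minimum was library 3, and most of the sum was miR-192-5p (mean 189214 CPM in reference). Red blood cell sums were 3571 to 8772.5 CPM in reference, 4021 to 6390 CPM in HFoleic and 3624 to 7256 CPM in HFepa. The single tested miRNA of the pancreas list (miR-375-3p) and of the muscle and heart list (miR-133a-3p) were called lower in both comparisons, with sums of up to 2021 CPM in reference library 5 and 214.9 CPM in reference library 4. Without library 5 miR-375-3p had log2 fold changes of -0.32 in HFoleic and -0.62 in HFepa (adjusted p = 0.560 and 0.240) and without library 4 miR-133a-3p had -0.15 and -0.36 (adjusted p = 0.826 and 0.665), and none of these was called. No marker of these lists was at 0 in every library. The part of cell composition in the rise of the family was not tested.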

How the data were processed

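Small RNA of 23 mouse livers was sequenced on 1 library per mouse. The authors trimmed the reads, aligned them with Bowtie in ncPRO-seq with mismatches allowed, annotated them against miRBase and deposited raw read counts per mature miRNA, which carry no coordinates; the study's sources name the genome as GRCm38.p6, mm9 and mm10. The submitters' processing notes name bcl2fastq 2.17.1.14. The authors also deposited a signal per library, the count divided by a size factor, which was not used, nor were their deposited log2 fold changes, p-values and adjusted p-values. Groups follow the labels for lineage and diet. Counts of the 386 of 1218 miRNAs passing filterByExpr were fitted for the 3 groups in 1 model with TMM factors. The test was edgeR's quasi-likelihood test, its p-values were adjusted by Benjamini-Hochberg over all 386, and a call required both a log2 fold change beyond 0.25 in size and an adjusted p under 0.05. Levels are mean ± SD; ratios carry a pseudocount of 0.5. R 4.3.3, edgeR 4.0.16, DESeq2 1.42.0, limma 3.58.1, Python 3.11.15 and pandas 2.3.3 were used. The test scripts were first run on simulated data. Totals of 3725432 to 8139344 counts leave counting error small for the 5p members and larger for the 3p members, which have few reads. The replicates are separate mice by the methods.

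The members, lists and tests were chosen with earlier results of these data known. Named miRNAs are the members, the other products of their clusters, carriers of their seeds, miR-10a-5p and miR-10b-5p, and the 3 tested miRNAs most like each of the 4 most abundant members. Alternatives were DESeq2, library size only, quantile normalization with limma, no filter, fits of only the 2 groups compared, calls at an unadjusted p under 0.01, a pseudocount of 1, a term for library numbers, libraries 1 to 11 or 12 to 23 alone, and each library left out. Hairpin positions and host genes are from GENCODE vM21 on GRCm38 and mature sequences from RefSeq on GRCm38.p6.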

Additional observations from a re-analysis of the deposited data

Results flagged for a closer look

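Of 45 groups of values (the levels of the 9 members, their sum and 5 ratios, each in 3 groups), 7 held a library far from the rest, where chance alone gives about 1 in 20. Reference library 3 was highest in 5 of them. It held 987.4 CPM of miR-99b-5p, 12.2 CPM of miR-99b-3p, 281.7 CPM of miR-100-5p and 24.5 CPM of miR-125b-1-3p, and its ratio of miR-125b-1-3p to miR-125b-2-3p was 0.277. The same library had the lowest sum of hepatocyte miRNAs and the highest sums of stellate cell, leukocyte and biliary miRNAs, at 113597, 42532, 3557 and 1094 CPM, and its part in the results was measured by leaving it out: the calls of miR-99a-5p, miR-99b-5p, miR-100-5p and miR-125b-5p held and that of miR-125b-1-3p in HFepa was lost.

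HFoleic library 14 held 5688 CPM of miR-99b-5p, well above the other 7 HFoleic mice, and without it HFoleic exceeded reference by 1.24 on the log2 scale (1.64 with it). HFepa library 17 held 6.57 CPM of miR-125a-3p, on 25 reads.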

How the results depend on the processing

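No paired analysis was possible because the labels give the groups no shared replicate numbers. The 4 calls in HFoleic vs. reference became 2 when only the 2 groups compared were fitted, 1 under quantile normalization with limma, 0 with a term for library numbers and 0 in libraries 1 to 11 alone, and the 5 calls in HFepa vs. reference became 0 with that term; DESeq2, library size, no filter and an unadjusted p under 0.01 kept both counts within 1.5 times (4 in HFepa without a filter, where miR-125b-1-3p was lost). Over all miRNAs, the 48 calls in HFoleic vs. reference became 25 with DESeq2, 10 with quantile normalization, 29 of 1218 without a filter, 7 with only the 2 groups and 1 with the term, and the 61 in HFepa vs. reference became 24 with quantile normalization, 40 with only the 2 groups and 0 with the term. The 3 ratios past the test in HFoleic vs. reference became 0 in libraries 1 to 11 alone, and leaving out 1 library gave 1 to 4 (1 without reference library 3 or HFoleic library 13, 14 or 15).

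With the term for library numbers the log2 fold change turned to -0.22 for miR-100-5p, -0.23 for miR-99b-5p, -0.11 for miR-125b-5p and -0.19 for miR-125a-5p in HFoleic vs. reference. In HFepa vs. reference it turned to -0.67 for miR-100-5p, -0.51 for miR-99b-5p, -0.32 for miR-125b-5p, -0.29 for miR-99a-5p and 0.18 for miR-99b-3p. In HFepa vs. HFoleic it turned to -0.45, -0.28 and -0.22 for miR-100-5p, miR-99b-5p and miR-125b-5p and 0.26 for miR-99b-3p. In libraries 1 to 11 alone, HFoleic vs. reference turned to -0.21 for miR-100-5p, -0.22 for miR-99b-5p, -0.10 for miR-125b-5p and -0.18 for miR-125a-5p, and the log2 ratios to -0.30 (miR-100-5p to miR-99a-5p), 0.024 (miR-125a-5p to miR-99b-5p) and -0.17 (arms of miR-99b). In libraries 12 to 23 alone, HFepa vs. HFoleic turned to -0.45 for miR-100-5p, -0.28 for miR-99b-5p, -0.21 for miR-125b-5p and 0.26 for miR-99b-3p, and the same ratios to -0.17, 0.52 and -0.64. In HFepa vs. HFoleic miR-99a-5p turned to 0.0049 with DESeq2 and 0.16 with quantile normalization and miR-99b-3p to 0.11 with the latter, and library size turned miR-125a-5p in HFoleic vs. reference to -0.015. The cause was not tested.

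Leaving out 1 library moved the HFepa vs. HFoleic log2 fold change across 0 for miR-99a-5p (-0.13 to 0.15), miR-100-5p (-0.060 to 0.39), miR-99b-3p (-0.13 to 0.10), miR-125a-3p (-0.013 to 0.23) and miR-125b-2-3p (-0.083 to 0.00014), and for the log2 ratio of miR-125a-5p to miR-99b-5p (-0.38 to 0.013). The calls of miR-99a-5p, miR-99b-5p and miR-100-5p held in 23 of 23 such fits in both comparisons against reference and that of miR-125b-5p in 19 and 23. Few reads limit miR-125a-3p, miR-99b-3p and miR-125b-1-3p.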
